A study of Mus musculus with 4 samples.

Results

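The 10 genes described here belong to the endoplasmic reticulum stress response: Hspa5, Calr, Pdia4, Sdf2l1, Dnajb9, Manf, Creld2, Herpud1, Xbp1 and Ddit3. They were taken by symbol from a table of 32285 genes, and were selected on their difference between 33 and 30 weeks in these data, so that comparison is given as a description. RNA of single cells from mouse spinal cord was sequenced at its 3' end after capture in droplets, and each unique molecular identifier (UMI) stands for 1 captured transcript. P301S is a mutant human tau transgene, and the promoter that drives it is not given in the sources used here. The control library came from P301S neg mice with CD8 WT alleles at an age of 30 weeks. The 30-week library and the 33-week library came from homozygous transgenic mice (P301S hom) of those ages, also CD8 WT. The library labelled CD8 KO came from P301S hom mice of 30 weeks. Each library pooled 2 cords and each group was 1 library, so no test between groups was possible, and the 95% intervals below cover counting error only, not the spread between animals. Levels are CPM, the UMIs of a gene scaled to a total of 1e6 UMIs in its cell class and library. A difference was counted when it reached 1.5-fold in a gene whose UMIs in the pair of libraries summed to 20 or more, and the share of all genes counted in the same way is given beside it.

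The endoplasmic reticulum folds secreted and membrane proteins, and when unfolded proteins build up in it the sensors IRE1, PERK and ATF6 start the unfolded protein response. Hspa5 (BiP) is the main Hsp70 chaperone of this compartment, to which Dnajb9 and Sdf2l1 are partners, and Calr and Pdia4 help to fold glycoproteins and to form disulfide bonds. Manf and Creld2 are proteins of the compartment that are released during stress, Herpud1 takes part in the degradation of misfolded proteins, and Xbp1 and Ddit3 (CHOP) are transcription factors of the IRE1 and PERK branches. Microglia, endothelial cells and antibody-secreting plasma cells all rely on this secretory route.

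In the GENCODE M21 annotation of mm10, Hspa5 lies on chromosome 2 (34771970 to 34777547), Calr on 8 (84841850 to 84846934), Herpud1 on 8 (94386438 to 94395377), Pdia4 on 6 (47796141 to 47813430) and Sdf2l1 on 16 (17130138 to 17132383). Dnajb9 lies on chromosome 12 (44205559 to 44210326), Creld2 on 15 (88819646 to 88826683), Xbp1 on 11 (5520659 to 5525893), Ddit3 on 10 (127290774 to 127296288) and Manf on 9 (106838312 to 106891979). Manf overlaps Rbm15b on the same strand, Ddit3 overlaps Mars on the opposite strand, and Herpud1 has an antisense gene, so UMIs there are less certain.

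The promoters of 9 members were matched in the RefSeq table (build GRCm38.p6), which covers 250 bases before to 50 bases after a gene's start, and 4 of them are shown because they hold an element known to be bound by ATF6. The stress response element ERSE (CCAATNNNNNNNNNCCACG) was found in Hspa5, Calr and Creld2, against 0.119% of the 32851 promoters in the table. Its second form ERSE-II (ATTGGNCCACG) was found in Herpud1, against 0.0365% of promoters. Both strands were searched, and the capitals below mark each match in the last 180 bases before the RefSeq start, written 5′ to 3′ on the strand of the gene.
Hspa5: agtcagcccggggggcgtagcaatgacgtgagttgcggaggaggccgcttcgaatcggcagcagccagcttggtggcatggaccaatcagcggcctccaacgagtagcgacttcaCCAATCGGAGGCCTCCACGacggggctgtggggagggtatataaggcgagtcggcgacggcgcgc
Calr: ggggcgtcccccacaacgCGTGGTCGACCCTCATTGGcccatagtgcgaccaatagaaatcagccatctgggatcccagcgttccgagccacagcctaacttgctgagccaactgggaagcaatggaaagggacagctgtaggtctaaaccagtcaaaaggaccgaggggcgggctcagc
Creld2: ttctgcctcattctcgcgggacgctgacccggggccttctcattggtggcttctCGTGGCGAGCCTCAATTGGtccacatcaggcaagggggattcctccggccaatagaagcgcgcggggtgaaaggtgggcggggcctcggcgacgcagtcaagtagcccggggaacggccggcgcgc
Herpud1: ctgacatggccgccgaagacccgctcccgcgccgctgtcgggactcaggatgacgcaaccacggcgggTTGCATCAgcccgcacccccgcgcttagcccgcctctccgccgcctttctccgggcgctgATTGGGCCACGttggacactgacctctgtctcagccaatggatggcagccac
These windows lie at chr2:34771910-34772089 on the plus strand (Hspa5), chr8:84846932-84847111 on the minus strand (Calr), chr15:88819466-88819645 on the plus strand (Creld2) and chr8:94386249-94386428 on the plus strand (Herpud1). In Hspa5 and Herpud1 the element reads along the gene, and in Calr and Creld2 it reads on the opposite strand. The first base of the element lay 65 bases before the start in Hspa5, 162 in Calr, 126 in Creld2 and 52 in Herpud1. Herpud1 also holds the composite element TGATGNAA, on the opposite strand, which 3.97% of promoters hold, and the capitals nearer its 5′ end mark it. The unfolded protein response element TGACGTGG was found in 0 of the 9 members and in 0.676% of promoters. In Ddit3, Dnajb9, Pdia4, Sdf2l1 and Xbp1 none of these 4 motifs was found in the window searched. The window of Dnajb9 (44210019 to 44210318) lies inside its GENCODE gene, so bases before the GENCODE start were not searched.

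The 4 libraries held 36331214 to 43531426 UMIs, and 20186 cells were kept and grouped into 37 clusters by expression, with the members and the other genes of the pathway left out of the clustering. Classes were named from marker genes and are called "-like". Macrophage-like cells, in which 11 of 12 macrophage and microglia markers were seen in at least 10% of cells, were the largest class with 7201 cells, followed by endothelial-like cells with 5173. Cd8a in T or NK-like cells stood at 207.5, 259.6 and 190.4 CPM in the control, 30-week and 33-week libraries and at 16.4 CPM (6 UMIs) in the library labelled CD8 KO. Pairs of libraries shared 5 to 12 barcodes. The sexes of the pooled mice differed, as read from Xist and Y-linked UMIs of the cells. The 30-week library held 3723 female cells and 0 male cells, the one labelled CD8 KO had 3089 male and 4 female cells, and the others held both.

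Each member had its own order of cell classes, computed from the mean log2 level over the libraries for 13 classes or clusters of at least 50 cells. First place in that mean did not always hold in every library. Hspa5 was highest in macrophage-like cells, at 2045 CPM in the control library, 973 in the 30-week library, 1221 in the 33-week library and 1126 in the library labelled CD8 KO. No other class reached these levels in the same library, and the lowest was the neutrophil lineage-like class at 134.9 to 193.0 CPM. With each cell thinned to 1000 UMIs, Hspa5 was seen in 52.6% to 72.1% of macrophage-like cells and in 9.95% to 13.3% of neutrophil lineage-like cells, whose median depths before thinning were 4985 to 10418 and 1931 to 2772 UMIs. Calr was at 522 to 612 CPM in macrophage-like cells and at 39.4 to 59.4 CPM in neutrophil lineage-like cells. It was highest in a set-aside cluster led by Prss34, Elane, Prtn3 and Mpo, genes of myeloid precursors, at 537.5 to 633.5 CPM over the 3 libraries with enough of its cells, and the ranges of these first 2 places overlapped. That cluster also held the highest Manf (380.4 to 463.1 CPM) and Sdf2l1 (263.1 to 302.3 CPM).

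Creld2 and Pdia4 came first on this mean in ependymal-like cells, the ciliated lining of the central canal, with B cell-like cells next and not apart from them. Creld2 in ependymal-like cells was 138, 127, 123 and 134.5 CPM in the control, 30-week, 33-week and CD8 KO libraries, and Pdia4 was 242, 222, 221 and 243 CPM in the same order. In neither gene did the libraries differ by 1.5-fold. Creld2 in B cell-like cells ran from 97.35 to 171.7 CPM and stood above ependymal-like cells in the 30-week (139.7 CPM) and 33-week (171.7 CPM) libraries. Pdia4 in B cell-like cells ran from 157.8 to 228.6 CPM and stood above ependymal-like cells in the 30-week library. Dnajb9 came first in endothelial-like cells, at 273, 255, 279 and 286 CPM, although macrophage-like cells of the control library reached 374 CPM. Ddit3 in endothelial-like cells was the most even of all over the 4 libraries, at 63.7, 64.3, 67.9 and 65.6 CPM, and Ddit3 came first in a set-aside cluster with pericyte and endothelial markers at 72.8 to 109 CPM. Macrophage-like cells of the control library again stood above that, at 151 CPM. Herpud1 was highest in B cell-like cells in each library, at 521 to 695 CPM. Xbp1 came first there on the mean, at 171 to 542 CPM, but was higher in macrophage-like cells of the control library (308 CPM) and, in the library labelled CD8 KO, in endothelial-like cells (237 CPM). Xbp1 was lowest in erythroid-like cells, at 16.6 to 23.3 CPM.

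**Figure D1:**
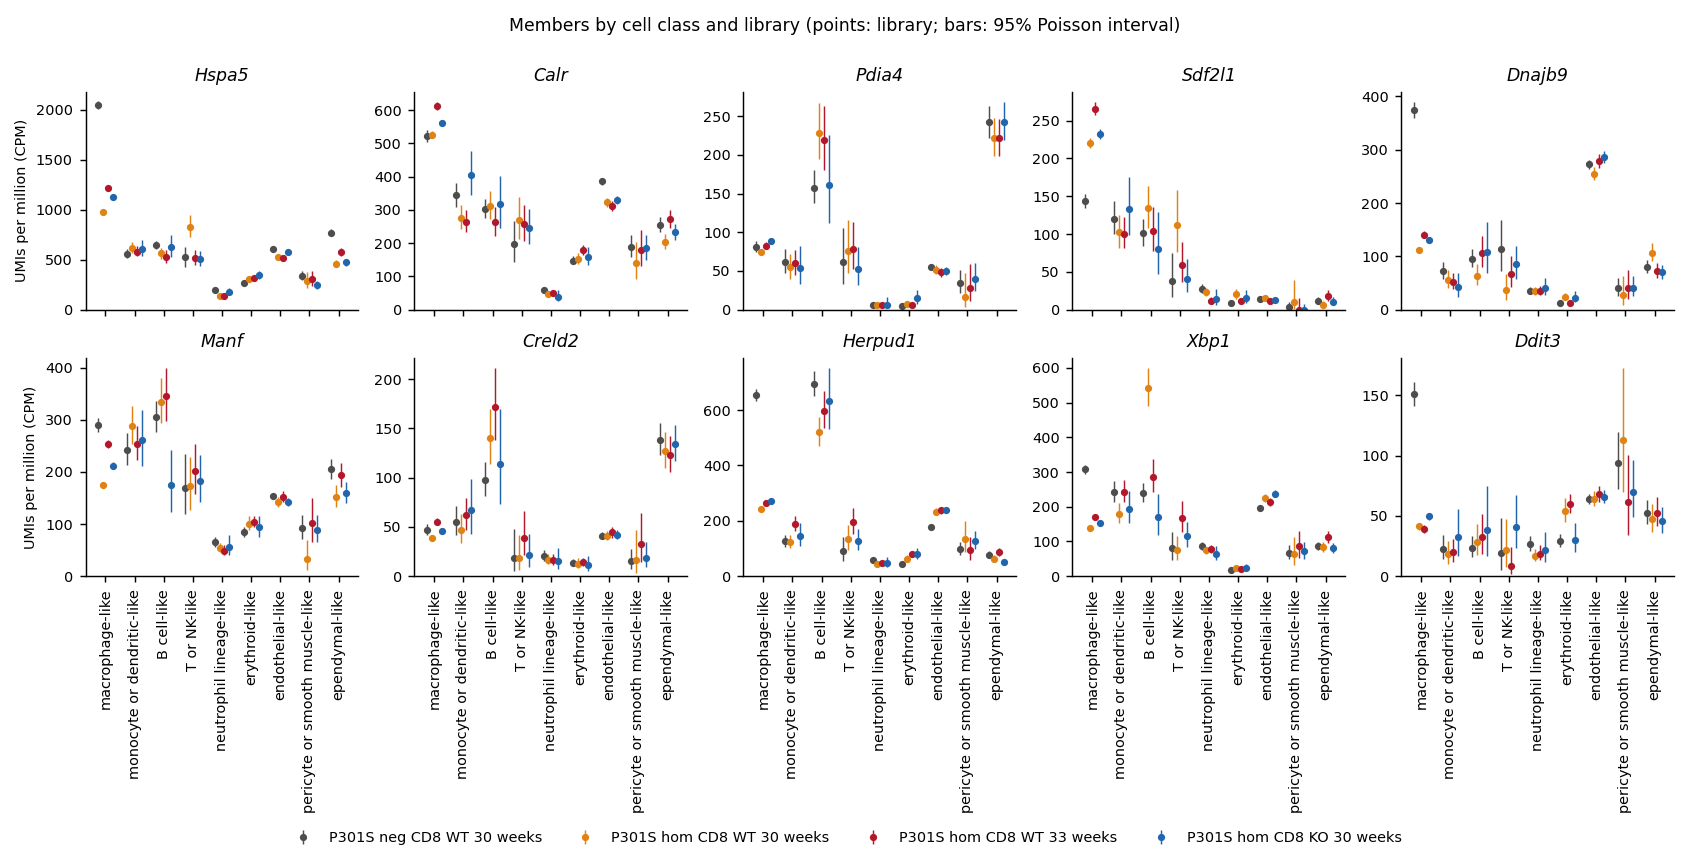
CPM of the 10 members (1 panel each, y axis) in 9 cell classes (x axis) of the 4 libraries (colours), with 95% Poisson intervals. Hspa5 is highest in macrophage-like cells of each library, Pdia4 and Creld2 are high in both ependymal-like and B cell-like cells, and the control library stands above the other libraries in macrophage-like cells for Hspa5, Dnajb9, Herpud1 and Ddit3.

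The high Xbp1, Creld2 and Pdia4 of B cell-like cells came from few cells, while Herpud1 stayed at 516 CPM without them. Of 694 B cell-like cells, 26 carried UMIs of 5 or more of 12 plasma cell markers, a list without the members, and this limit was chosen after the values were seen. These 26 cells held 78.1% of the Xbp1 UMIs of the class, 68.2% of those of Creld2 and 60.7% of those of Pdia4. Xbp1, which plasma cells need for antibody secretion, was at 1183 CPM (1097 to 1274) in them and at 89.0 CPM (77.0 to 102) in the other 668. Creld2 was at 398 against 49.7 CPM and Manf at 667 against 215 CPM in the same groups of cells. Sdf2l1 (275 against 63.7 CPM), Hspa5 (891 against 523 CPM) and Dnajb9 (140 against 76.8 CPM) were also higher in the 26 cells. Calr was level, at 290.3 against 300.9 CPM, and 20.5% of its UMIs in the class lay in the 26 cells. The shares above are to be read against that one and not against the share of cells. Ddit3 went the other way, with 1 UMI (1.69 CPM, interval 0.0427 to 9.40) in the 26 cells and 34.3 CPM (27.1 to 43.0) in the others. The 26 cells were deeper, with a median of 22322 UMIs against 2281, and a deeper cell is more likely to show 5 markers. They were spread as 7, 13, 5 and 1 over the control, 30-week, 33-week and CD8 KO libraries, and Xbp1 in the class was 240, 542, 287 and 171 CPM in that order. In the other cells it was 91.3, 83.1, 99.9 and 61.9 CPM. Those other cells were not alike, since the plasma cell gene Jchain was at 4027 CPM (1693 UMIs) in the 33-week library against 1, 2 and 0 UMIs in the control, 30-week and CD8 KO libraries.

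**Figure D2:**
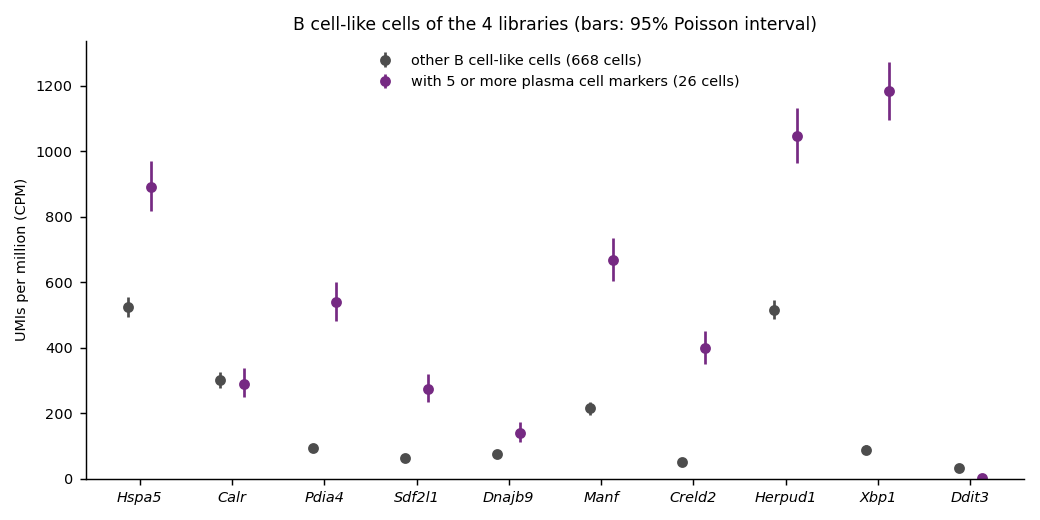
CPM of the 10 members (x axis) in the 26 B cell-like cells with 5 or more plasma cell markers and in the other 668, all 4 libraries together, with 95% Poisson intervals. Xbp1, Creld2, Pdia4, Manf, Herpud1, Sdf2l1, Hspa5 and Dnajb9 are higher in the 26 cells, Calr is level and Ddit3 is lower.

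Between the 30-week and the 33-week library, 9 of 10 members had a higher level in macrophage-like cells at 33 weeks, by less than 1.5-fold each. Manf went from 175 to 254 CPM, which was 1.45-fold (1.38 to 1.52), and Creld2 from 38.8 to 55.2 CPM, which was 1.42-fold (1.29 to 1.57). Both of these are proteins released under stress. Among the chaperones and their partners, Hspa5 was 1.26-fold (1.23 to 1.28), Dnajb9 1.26-fold (1.18 to 1.33), Sdf2l1 1.21-fold (1.16 to 1.26), Calr 1.16-fold (1.13 to 1.20) and Pdia4 1.115-fold (1.03 to 1.20) higher. Herpud1 was 1.099-fold (1.05 to 1.15) higher, and Xbp1, the factor of the IRE1 branch, went from 139 to 171 CPM, 1.23-fold (1.17 to 1.30). Ddit3, the factor of the PERK branch, was at 41.4 and 38.9 CPM, a ratio of 0.941 (0.844 to 1.05) whose interval holds 1. Thus 0 of 10 members passed 1.5-fold in either direction, where 3.15% of all genes were that much higher and 3.17% that much lower. The median log2 ratio was 0.28 over the members and 0.01 over all genes. The clusters within this class had other shares of its cells at 33 than at 30 weeks, as given with the clusters below.

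In endothelial-like cells 5 of 10 members had a ratio above 1 and 5 below. The lowest was Sdf2l1, at 14.83 and 11.03 CPM (ratio 0.744, 0.536 to 1.03), and the highest Dnajb9, at 255 and 279 CPM (1.095-fold, 1.02 to 1.17). Hspa5 was at 531 and 518 CPM there, and Manf at 142 and 153 CPM. The intervals of 9 of 10 members hold 1, and 0 of 10 passed 1.5-fold, against 3.22% of all genes higher and 4.81% lower. Over the 6 named classes with at least 100 cells at both ages, 2 of 60 pairs of a class and a member were at least 1.5-fold higher at 33 weeks and 4 were that much lower, where all genes gave 6.17% and 7.99%. The higher pairs were Dnajb9 in B cell-like cells (1.66-fold, 1.104 to 2.52, from 45 and 56 UMIs) and Herpud1 in monocyte or dendritic-like cells (1.55-fold, 1.21 to 1.98). The lower pairs were Xbp1 in B cell-like cells (1.89-fold, 1.56 to 2.30), Dnajb9 and Sdf2l1 in erythroid-like cells (1.87-fold and 1.73-fold) and Sdf2l1 in neutrophil lineage-like cells (2.02-fold). Without the 26 cells above, Dnajb9 in B cell-like cells was at 28.5 CPM (12 UMIs) at 30 weeks and 97.5 CPM (41 UMIs) at 33 weeks. It was at 82.9 CPM in the control and 101 CPM in the CD8 KO library, so the 30-week value was the low one. Xbp1 without these cells was at 83.1 CPM at 30 weeks and 99.9 at 33 weeks. Jchain remained at 4.75 and 4027 CPM there, and the part of plasma cell RNA in these values was not tested.

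**Figure D3:**
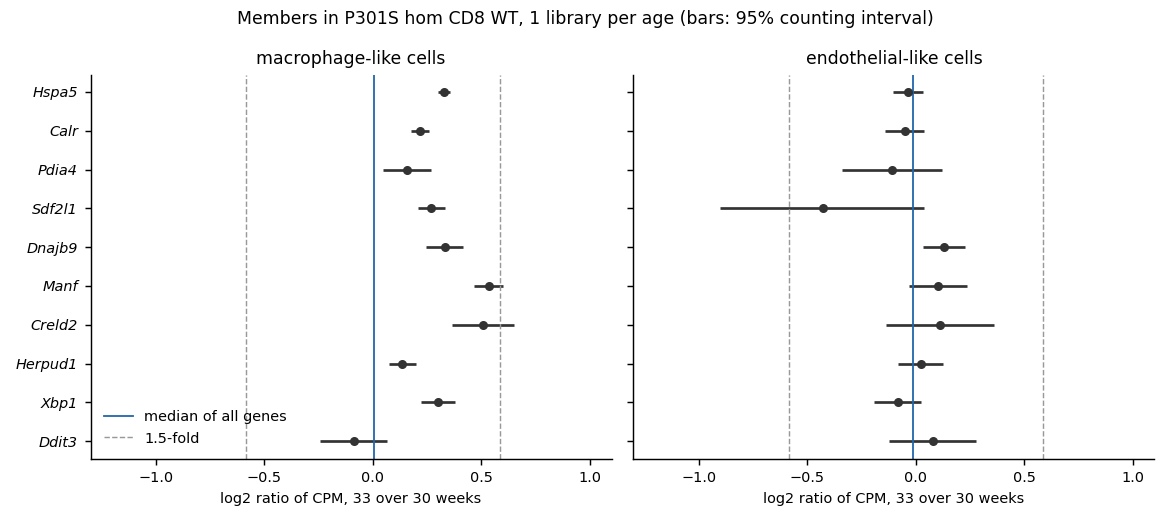
Log2 ratio of CPM at 33 over 30 weeks (x axis) of the 10 members in macrophage-like and endothelial-like cells, with 95% counting intervals, the median of all genes and the 1.5-fold limits. In macrophage-like cells 9 of 10 points lie right of 0 and short of 1.5-fold, and in endothelial-like cells the points lie on both sides of 0.

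The other genes of the pathway were counted in the same cells. The members were selected on this difference, so their median is not to be read against those of the lists. All lists were written with earlier results of these data known. Of 22 other chaperones and folding enzymes of the endoplasmic reticulum, 18 had a ratio above 1 at 33 over 30 weeks with a median log2 ratio of 0.06, and 0 passed 1.5-fold. The 6 sensors of the response had a median of 0.05, the 16 degradation genes of 0.05, 19 measured genes of translocation and export of 0.00242, and 10 measured genes of calcium handling of -0.02. Of 23 measured genes downstream of Atf4 and Ddit3, 9 were above 1 and 14 below, with a median of -0.03. One of them passed 1.5-fold, Chac1, which degrades glutathione, with 44 UMIs at 30 weeks and 20 at 33 (a ratio of 0.667, 0.372 to 1.155). The cytosolic heat shock genes (13 genes, median 0.15) and the early genes known from tissue dissociation (18 genes, median 0.16, 15 of 18 above 1) were also higher at 33 weeks. Their part in the members' ratios was not tested. In endothelial-like cells the lists inside the endoplasmic reticulum had medians of -0.17 to -0.000031, and of 13 heat shock genes 2 passed 1.5-fold, the chaperones Cryab (2.73-fold, 1.63 to 4.72) and Hsph1 (1.81-fold, 1.47 to 2.23).

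Levels also differed between the female and the male cells of a library. In the 33-week library, female macrophage-like cells (607) had higher levels than male ones (611) in 8 of 10 members, with ratios from 0.937 for Sdf2l1 to 1.56 for Herpud1. Hspa5 was at 1478 CPM in the female and 1062 CPM in the male cells. One member passed 1.5-fold, against 4.64% of all genes. In the control library the order was the opposite. Female cells (558) were lower than male cells (366) in 10 of 10 members, with ratios from 0.517 for Creld2 to 0.801 for Ddit3, and 3 members were at least 1.5-fold lower, against 3.99% of all genes. Hspa5 there was at 1560 CPM in female and 2708 CPM in male cells, and Manf at 225 and 386 CPM. Hspa1a, a cytosolic heat shock gene, was lower too in these female cells (ratio 0.232), and Fos was near level (0.959). Both genes were picked after values were seen and do not stand for their lists. If the cells of each sex come from 1 animal, sex and animal cannot be told apart.

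Among female cells alone, 10 of 10 members were higher at 33 than at 30 weeks in macrophage-like cells, and 3 passed 1.5-fold, against 3.75% of all genes. These were Manf (1.65-fold, 1.56 to 1.75), Creld2 (1.53-fold, 1.34 to 1.74) and Hspa5 (1.502-fold, 1.46 to 1.54). Male cells at 33 weeks set against the female cells at 30 weeks gave 8 of 10 members above 1, with Manf at 1.33-fold (1.25 to 1.41), Hspa5 at 1.08-fold (1.05 to 1.11), Herpud1 at 0.868 (0.817 to 0.921) and Ddit3 at 0.771 (0.660 to 0.897). The other 8 members were higher in both the female and the male cells of the 33-week library than in the female cells at 30 weeks. Both ratios share those 30-week cells, and the members were selected on the difference between these libraries. The ratios by sex are therefore a description and not a repeat of the result. For Pdia4 in the male cells (1.103-fold, 0.9966 to 1.219) the interval holds 1. Ddit3 and Herpud1 were above 1 in the female and below 1 in the male cells. The 30-week library held no male cells, so age, sex and animal cannot be told apart in the male ratios. Fos and Jun, early genes picked after values were seen, were 1.38-fold and 1.45-fold higher in the female cells at 33 weeks. Their part was not tested.

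**Figure D4:**
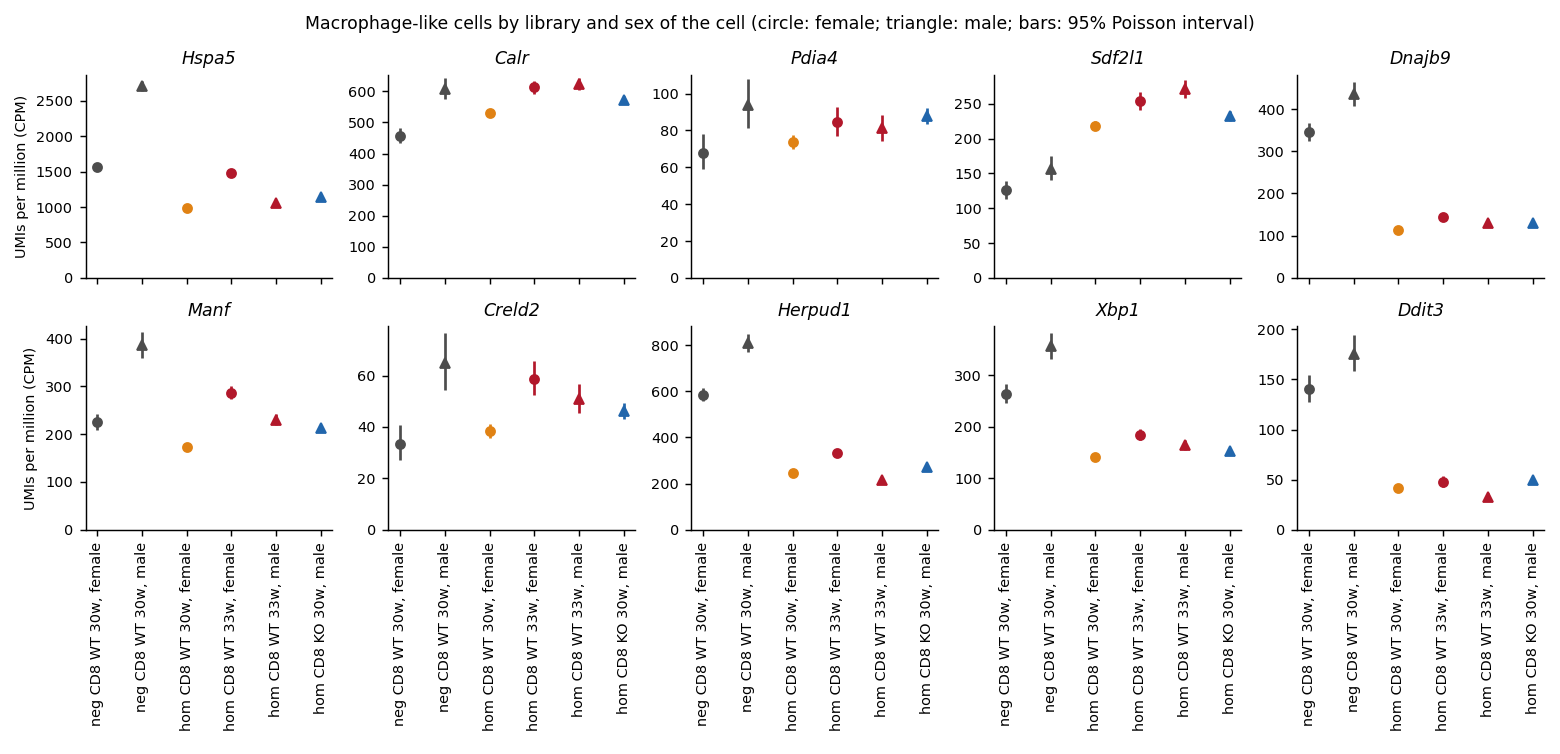
CPM of the 10 members (1 panel each, y axis) in female (circles) and male (triangles) macrophage-like cells of each library (x axis), with 95% Poisson intervals. Male cells of the control library are the highest for 8 members, all but Calr and Sdf2l1, and female cells of the 30-week library lie below both sexes of the 33-week library for 8 members, all but Ddit3 and Herpud1.

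Macrophage-like cells fell into clusters between which several members differed by more than between the ages, among them Ddit3, Herpud1, Dnajb9, Hspa5 and Xbp1. The largest were led by P2ry12 (a gene of resting microglia), Ccl3 (a chemokine), Spp1 and Gpnmb (genes of disease-associated microglia). Each name is the first leading gene only, and Gpnmb does not set the Gpnmb-led cluster apart from the Spp1-led one. Gpnmb was at 1608, 2305 and 1139 CPM in the former and 2015, 2547 and 1298 CPM in the latter (30-week, 33-week and CD8 KO libraries). In the 30-week library, Ddit3 was at 139 CPM (119 to 160) in the P2ry12-led cluster and 24.6 CPM (21.62 to 27.96) in the Spp1-led cluster. At 33 weeks these were 114 and 24.8 CPM, and in the library labelled CD8 KO 114 and 34.4 CPM. Herpud1 was at 568 and 181 CPM, 578 and 181 CPM, and 560 and 197 CPM in the same pairs. The groups of 3 values did not overlap for either gene. Sdf2l1 had the opposite order, at 135.5, 180 and 172 CPM in the P2ry12-led cluster and 246, 323 and 261 CPM in the Spp1-led one. Calr was also higher in the Spp1-led cluster, by 1.36-fold, 1.496-fold and 1.19-fold, and Manf was close to level, with ratios of 0.918, 1.15 and 0.942. In the Spp1-led cluster 40.1%, 35.9% and 39.4% of all genes were at least 1.5-fold lower than in the P2ry12-led one and 13.3%, 12.3% and 11.6% that much higher, in the order of the 3 libraries, so a lower value there is common. The median log2 ratio of all genes was -0.39, -0.33 and -0.40. Hspa5 was at 1578, 1630 and 1538 CPM in the P2ry12-led cluster, 1035, 1356 and 1179 in the Spp1-led and 583, 725 and 624 in the Gpnmb-led one. Xbp1 was at 234, 285 and 237, 136, 169 and 146, and 118, 130 and 117 CPM in the same order. Of the 10 members, 9 were lower in the Gpnmb-led than in the P2ry12-led cluster in each transgenic library. Sdf2l1 was higher. The median log2 ratio of all genes for this pair was -0.321, -0.315 and -0.317.

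The summed early genes were also highest in the P2ry12-led cluster, with 48797 to 50042 CPM in the P2ry12-led cluster of the 3 transgenic libraries, 26869 to 29369 in the Ccl3-led one, 17046 to 18459 in the Spp1-led one and 14188 to 16302 in the Gpnmb-led one. Their part in the levels of Ddit3, Herpud1, Dnajb9, Hspa5 and Xbp1 was not tested. The share of the class in each cluster differed between the ages. The P2ry12-led cluster held 11.59% of the class at 30 weeks and 18.55% at 33, and the Gpnmb-led 25.76% and 29.43%. The Spp1-led cluster held 34.88% and 23.77%, and the Ccl3-led 24.32% and 22.2%. The part of these shares in the ratios of the whole class was not tested. Within clusters, the ratios at 33 over 30 weeks also differed. Manf was 1.20-fold higher in the P2ry12-led, 1.36-fold in the Gpnmb-led, 1.51-fold in the Spp1-led and 1.61-fold in the Ccl3-led cluster. Creld2 was 1.27-fold, 1.20-fold, 1.47-fold and 1.58-fold higher in that order, and Hspa5 1.03-fold, 1.24-fold, 1.31-fold and 1.35-fold. Ddit3 was at 0.824, 0.860, 1.005 and 0.624 of its 30-week level. Herpud1 went from 568 to 578, 153 to 137, 181 to 181 and 359 to 414 CPM in that order. Dnajb9 went from 323 to 279, 83.1 to 114, 80.7 to 104 and 143 to 171 CPM. Members above 1 were 7, 7, 10 and 9 of 10. The ratios of the members ran from 0.824 to 1.33, 0.860 to 1.37, 1.001 to 1.51 and 0.624 to 1.61 in that order. Members were not counted at 1.5-fold here, because the share of all genes is not given for single clusters at these ages.

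**Figure D5:**
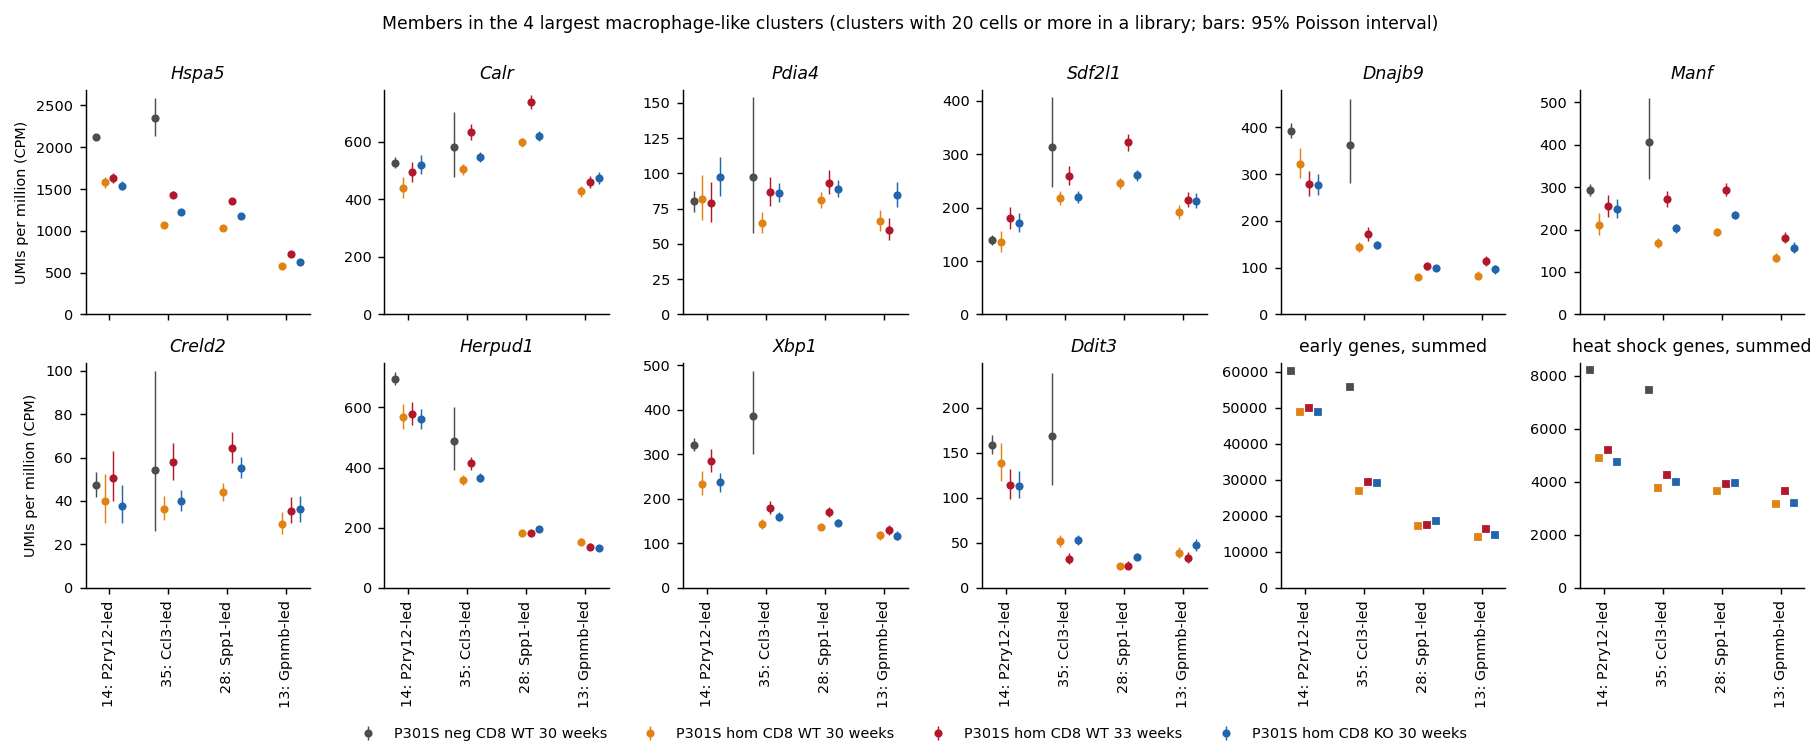
CPM of the 10 members and summed CPM of the early and heat shock genes (1 panel each, y axis) in the 4 largest macrophage-like clusters (x axis) of the 4 libraries (colours), with 95% Poisson intervals on the members. Ddit3, Herpud1, Dnajb9, Hspa5, Xbp1 and the early genes are highest in the P2ry12-led cluster of the transgenic libraries, and Sdf2l1 is lowest there.

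Between the control library and the 30-week library, 7 of 10 members lay outside 1.5-fold in macrophage-like cells. Those lower in the 30-week library were Ddit3 (151 to 41.4 CPM, 3.65-fold lower, 3.32 to 4.00), Dnajb9 (374 to 112 CPM, 3.35-fold), Herpud1 (654 to 241 CPM, 2.71-fold), Xbp1 (308 to 139 CPM, 2.21-fold), Hspa5 (2045 to 973 CPM, 2.10-fold) and Manf (291 to 175 CPM, 1.66-fold). Sdf2l1 was higher, at 143.5 CPM in the control and 220.5 CPM in the 30-week library (1.54-fold, 1.43 to 1.65). Creld2 was at 46.8 and 38.8 CPM, Pdia4 at 81.4 and 74.2 CPM, and Calr was level, at 522 and 526 CPM. Of all genes, 36.6% were at least 1.5-fold lower in the 30-week library and 11.2% that much higher, and the median log2 ratio of all genes was -0.38. Relative to that median, 6 members stayed lower, with Manf at -0.35 and Ddit3 at -1.49 on the log2 scale. Creld2 (0.11), Pdia4 (0.24), Calr (0.39) and Sdf2l1 (0.9955) were then higher. With trimmed-mean (TMM) scaling Creld2 and Pdia4 likewise changed sign.

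The clusters that made up the class differed between these libraries. The P2ry12-led cluster made up 79.1% of the class in the control and 11.6% in the 30-week library, and the Spp1-led cluster held 3 and 677 cells. Within the P2ry12-led cluster, 0 of 10 members passed 1.5-fold, against 16.5% of all genes, and the ratios ran from 0.722 for Manf to 1.02 for Pdia4. Ddit3 was at 159 and 139 CPM there, Hspa5 at 2118 and 1578 CPM and Herpud1 at 696 and 568 CPM. The early genes (15 of 18) and the heat shock genes (10 of 13) were at least 1.5-fold lower in the 30-week library over the whole class, with medians of -1.34 and -1.25. In the P2ry12-led cluster the summed heat shock genes were at 8218 CPM in the control and 4874 CPM in the 30-week library. The part of these lists in the members' ratios was not tested. Among female cells 4 of 10 members were above 1 and 6 below, with ratios from 0.299 for Ddit3 to 1.74 at the highest. Hspa5 was at 0.631 of the control level. Manf was at 0.773, short of 1.5-fold, and Creld2 and Pdia4 were above 1 (1.15 and 1.08). The share of all genes is not given for these female cells. In endothelial-like cells 0 of 10 members passed 1.5-fold, against 11.4% of all genes, and the widest were Herpud1 (1.31-fold higher, 1.23 to 1.39) and Calr (1.20-fold lower, 1.14 to 1.26). There, 9 of 13 heat shock genes were at least 1.5-fold lower. In erythroid-like cells Sdf2l1 (2.17-fold), Dnajb9 (2.03-fold) and Ddit3 (1.87-fold) were higher in the 30-week library, where 39.3% of all genes were. In B cell-like cells Xbp1 was 2.25-fold higher (1.94 to 2.62), as were 5.02% of all genes, and in the cells without 5 plasma cell markers it was at 91.3 and 83.1 CPM.

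Between the library labelled CD8 KO and the 30-week library, 10 of 10 members were slightly higher in macrophage-like cells of the former. The ratios ran from 1.05 for Sdf2l1 to 1.21 for Manf (1.16 to 1.26), and 0 members were outside 1.5-fold, against 7.16% of all genes. The 30-week library is the denominator of this and of the age comparison, and its level was the lowest of the 3 transgenic libraries for 9 of 10 members, all but Ddit3. The library labelled CD8 KO holds male cells and the other female cells, so the allele and the sex cannot be told apart here. The early genes were above 1 in 17 of 18 (median log2 ratio 0.20), and their part was not tested. Male cells of the library labelled CD8 KO were also set over male cells of the 33-week library, a pair that differs in age as well. Of the 10 members, 4 were above 1 and 6 below. The ratios were 0.857 for Sdf2l1, 0.920 for Manf, 1.07 for Hspa5, 1.27 for Herpud1 and 1.53 for Ddit3. Members were not counted at 1.5-fold for this pair, because the share of all genes is not given for it.

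Summed over the members and with each cell thinned to 1000 UMIs, macrophage-like cells held 4.84 ± 4.21 UMIs per cell (mean and SD over 1186 cells) in the control, 2.63 ± 2.52 (1909 cells) in the 30-week, 3.16 ± 2.87 (1543 cells) in the 33-week library and 3.01 ± 2.81 (2300 cells) in the library labelled CD8 KO. The share with 5 or more was 42.6%, 16.9%, 23.6% and 21.8%. Endothelial-like cells held 1.84, 1.75, 1.80 and 1.87 UMIs. The SD over cells is nearly as wide as the mean, and cells are not replicates.

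Over 51 pairs of a class and a library (16 classes), Hspa5 went most closely with Calr (Pearson r = 0.877 of log2 CPM with 5 CPM added) and Creld2 with Pdia4 (0.875). Ddit3 went with few members, with r of -0.469 for Sdf2l1 and -0.225 for Manf, and 0.578 for Dnajb9. The genes most like the mean of the members were Hsp90b1 (0.919), the Hsp90 chaperone of the compartment, and Pdia6 (0.907), a disulfide isomerase, followed by Tmed9 (0.881), Mtdh (0.866), Pip4p1 (0.849), Alg5 (0.835), M6pr (0.835) and Ctdnep1 (0.826). These points share libraries and cell classes and carry no p-value. Hsp90b1 in macrophage-like cells was 1.17-fold (1.14 to 1.20) and Pdia6 1.16-fold (1.12 to 1.22) higher at 33 than at 30 weeks. Both were picked for likeness to the members over pairs that include these cells at both ages. Their ratios are thus a description and no separate support for those of the members.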

How the data were processed

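Each of 4 groups gave 1 droplet library of 2 pooled spinal cords, dissociated with heat and enzymes and freed of myelin, per the labels' protocols. The authors deposited raw UMI counts per gene and barcode, made with Cell Ranger 6.0.1 per the file headers, on mm10 per the submitters' processing notes. Cells were kept with at least 500 UMIs, 200 genes and at most 15% mitochondrial UMIs, and doublets were removed with scrublet at an expected rate of 6%. Clustering used scanpy 1.11.5 (2000 variable genes without the members, pathway genes and sex-linked genes, 30 principal components, 15 neighbours, Leiden resolution 1.0). A cluster was named when at least 3 markers of a class were found in 10% of its cells and no other class led it. Clusters with markers of 2 lineages were set aside. UMIs were summed per class and library, ratios carry exact conditional binomial intervals, CPM Poisson intervals and shares Clopper-Pearson intervals, and ratios were tested on simulated data. Depth per library bounds each interval. The members and lists were chosen with earlier results of these data known. Named genes were all members, up to 4 genes per list with at least 50 UMIs outside 1.5-fold at 33 over 30 weeks, and the 8 genes most like the members. Hspa1a, Fos, Jun and the limit of 5 plasma cell markers were chosen after values were seen. Ddit3 has a second identifier with 0 UMIs, and its reads and those of Manf overlap other genes. Protein sequences were not analysed here. Alternatives were another scaling, filter, clustering, doublet and depth handling, female cells and ratios within clusters.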

Additional observations from a re-analysis of the deposited data

Results flagged for a closer look

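Some members lay outside 1.5-fold in opposite directions in different cell classes under the same comparison. These differences between classes were not tested, because each group is 1 library. For P301S hom over P301S neg, Ddit3 was 1.87-fold higher in erythroid-like cells, where the ratio was 0.274 in macrophage-like and 0.636 in neutrophil lineage-like cells. Dnajb9 was 2.03-fold higher in erythroid-like cells with a ratio of 0.299 in macrophage-like cells. In erythroid-like cells, 39.3% of all genes were at least 1.5-fold higher and the median log2 ratio of all genes was 0.49. Xbp1 was 2.25-fold higher in B cell-like cells with a ratio of 0.453 in macrophage-like cells, and the B cell-like libraries held 13 (P301S hom) and 7 (P301S neg) cells with 5 or more plasma cell markers. For 33 over 30 weeks, Dnajb9 was 1.66-fold higher in B cell-like cells with a ratio of 0.535 in erythroid-like cells. These rest on 56 UMIs at 33 and 45 at 30 weeks in B cell-like cells, and on 49 and 54 in erythroid-like cells. Of the 45 UMIs, 33 lay in the 13 cells with 5 or more plasma cell markers. In the other B cell-like cells Dnajb9 was at 28.5 CPM (12 UMIs) at 30 weeks and 97.5 CPM (41 UMIs) at 33 weeks.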

How the results depend on the processing

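Of 79 counts of members under the alternatives tried, 72 stayed within 1.5 times the value given. In macrophage-like cells the count at least 1.5-fold higher at 33 weeks was 3 instead of 0 among female cells. The count of class and member pairs was 5 instead of 2 among female cells and with cells thinned to 1000 UMIs, 1 with mixed clusters kept or within clusters, and 0 at 2-fold. The count outside 1.5-fold for P301S hom against P301S neg was 0 instead of 7 within clusters, where only the P2ry12-led cluster had 50 cells in both libraries. Of 260 single ratios at 33 over 30 weeks in macrophage-like and endothelial-like cells, 232 stayed within their counting interval. In endothelial-like cells 9 of 10 members were above 1 with the mean of the cells' own CPM, against 5, and 6 of 10 changed side of 1 when thinned. For P301S hom against P301S neg in macrophage-like cells, the members outside their interval were 10 under TMM scaling, 9 among female cells, 8 within clusters, 7 when thinned and 5 with the mean of the cells' own CPM, and 2, 2, 3, 1 and 1 of the 10 changed side of 1. Leaving out the macrophage-like cluster of low UMI counts or the plasma marker cells was chosen after seeing the data. The causes were not tested. The library labelled CD8 KO held too few female cells for that alternative. No paired analysis was possible because each group is 1 library. Sdf2l1 in endothelial-like and Chac1 in macrophage-like cells rest on few UMIs.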
